A study of Mus musculus with 8 samples.

Results

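A set of 10 mouse germline genes (Dazl, Stra8, Ddx4, Sycp3, Mael, Tex101, Asz1, Hormad1, Slc25a31 and Taf7l) was followed in induced pluripotent stem cells (iPSCs) and an embryonic stem cell (ESC) line. They were chosen by name, through the RefSeq transcripts that the array's probes are annotated to, out of 20970 named genes on the array. RNA was measured on 8 one-colour arrays from cells of the C57BL/6J strain, 1 per sample: 1 array of the ESC line B6J-23, 4 of OSKH iPSCs and 3 of OSK iPSCs, the control group. The labels do not spell the group names out. OSK is taken here as the reprogramming factors Oct4, Sox2 and Klf4, and the H as H1foo, the oocyte's linker histone, so that both iPSC groups carry the OSK factors. The labels do not say from which cells the iPSCs were made or whether the arrays within a group come from separate lines, so a p-value here reflects the spread among these arrays alone, and that spread may be technical.

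Germline genes of this kind are transcribed in germ cells and shut in most somatic tissues. Many have CpG-rich promoters that gain DNA methylation in the embryo around implantation and lose it in primordial germ cells. In mouse ESCs, a further layer of repression comes from the variant Polycomb complex PRC1.6, whose subunits MGA and MAX bind the E-box CACGTG and whose subunit E2F6 binds the letters TCCCGC. DNA methylation was not measured on these arrays, so whether these promoters were methylated is not known here. The probe signals were not uniformly at background: 9 of the 10 genes were well above it on at least 3 arrays. Stra8, Ddx4, Sycp3, Mael and Taf7l lay above the 75th percentile of the signal on all 8 arrays. Each of these had 1 probe, and the probe sequences were not checked.

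The promoters of all 10 genes were found in RefSeq (GRCm38.p6), as windows from 250 bases before to 50 bases after the start listed there. They held a median of 20.5 CpGs, against 7 over 27018 promoters, and ranged from 10 in Stra8 to 38 in Ddx4. CACGTG was found in 6 of the 10 (Ddx4, Sycp3, Mael, Hormad1, Slc25a31 and Taf7l) and in 7.24% of all promoters. TCCCGC, searched on both strands, was found in 5 of the 10 (the same genes without Taf7l) and in 20.0% of all promoters. Both motifs contain a CpG, and the shares over all promoters were not matched for CpG content, so they do not show enrichment. The motif matches are a description of these letters and not of binding. Dazl, Stra8 and Mael are shown because they had the largest shifts toward lower levels in OSKH, and Ddx4, Sycp3 and Hormad1 because they, like Mael, hold both motifs. Each is written 5′ to 3′ on the gene's strand, with CACGTG and TCCCGC (or its reverse complement) in capitals. The Dazl window is chr17:50293571-50293870 on the minus strand, Stra8 chr6:34920698-34920997 on the plus strand, Mael chr1:166238695-166238994 on the minus strand, Ddx4 chr13:112652261-112652560 on the minus strand, Sycp3 chr10:88459337-88459636 on the plus strand and Hormad1 chr3:95559427-95559726 on the plus strand.
Dazl: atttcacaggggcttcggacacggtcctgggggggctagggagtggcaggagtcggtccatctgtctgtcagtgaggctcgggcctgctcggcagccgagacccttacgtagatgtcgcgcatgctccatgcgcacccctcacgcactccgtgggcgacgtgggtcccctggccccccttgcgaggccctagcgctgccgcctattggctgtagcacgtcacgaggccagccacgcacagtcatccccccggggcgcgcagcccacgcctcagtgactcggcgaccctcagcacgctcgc
Stra8: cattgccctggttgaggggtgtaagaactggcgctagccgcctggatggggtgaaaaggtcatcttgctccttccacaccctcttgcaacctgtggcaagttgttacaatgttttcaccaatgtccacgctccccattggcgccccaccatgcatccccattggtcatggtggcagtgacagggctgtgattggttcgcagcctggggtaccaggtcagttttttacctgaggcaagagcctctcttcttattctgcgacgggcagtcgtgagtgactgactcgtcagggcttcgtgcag
Mael: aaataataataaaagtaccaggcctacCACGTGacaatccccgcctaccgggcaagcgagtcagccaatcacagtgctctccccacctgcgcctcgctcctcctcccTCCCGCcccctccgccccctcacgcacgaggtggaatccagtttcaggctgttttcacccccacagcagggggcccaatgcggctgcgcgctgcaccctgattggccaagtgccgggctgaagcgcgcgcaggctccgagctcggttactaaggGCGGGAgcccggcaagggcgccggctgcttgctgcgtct
Ddx4: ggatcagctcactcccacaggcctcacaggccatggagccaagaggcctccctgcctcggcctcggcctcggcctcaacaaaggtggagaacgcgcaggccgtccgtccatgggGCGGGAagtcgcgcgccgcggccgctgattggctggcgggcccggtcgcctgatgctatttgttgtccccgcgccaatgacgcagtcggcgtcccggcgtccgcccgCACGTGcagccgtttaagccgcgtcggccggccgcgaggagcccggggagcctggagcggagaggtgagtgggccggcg
Sycp3: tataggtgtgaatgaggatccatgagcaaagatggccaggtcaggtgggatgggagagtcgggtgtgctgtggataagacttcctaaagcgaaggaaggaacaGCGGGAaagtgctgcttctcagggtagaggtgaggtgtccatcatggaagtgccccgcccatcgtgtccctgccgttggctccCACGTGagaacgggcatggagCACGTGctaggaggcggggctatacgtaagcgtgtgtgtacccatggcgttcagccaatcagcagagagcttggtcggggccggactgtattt
Hormad1: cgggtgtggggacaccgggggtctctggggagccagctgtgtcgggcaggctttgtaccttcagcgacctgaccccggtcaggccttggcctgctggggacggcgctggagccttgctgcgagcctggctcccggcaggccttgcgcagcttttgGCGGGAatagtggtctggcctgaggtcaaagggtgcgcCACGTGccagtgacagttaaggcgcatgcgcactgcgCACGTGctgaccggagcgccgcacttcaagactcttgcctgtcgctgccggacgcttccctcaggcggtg

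The Dazl and Stra8 windows hold neither motif, although Dazl has 28 CpGs, more than 86.0% of all promoters. In Sycp3 the 2 E-boxes start at positions -64 and -43 from the gene's start, and in Hormad1 at -57 and -20.

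A level is the log2 signal minus the log2 75th percentile of that array, and a probe at the percentile has level 0. Group differences are log2 differences of levels, with the standard error (SE) that limma gave. Levels are read across arrays for 1 probe at a time and not between genes. The 75th percentile of the signal lay between 424 and 501, 51.4% to 59.0% of probes per array were called well above background by the scanner software, and 0 were saturated. All 8 arrays lay on 1 slide: ESC and OSKH 1 to 3 in row 1, OSKH 4 and OSK 1 to 3 in row 2. OSKH and OSK arrays of the same number shared a slide column. In RNA from a whole culture, fewer cells expressing a gene and less RNA per cell cannot be told apart. OSKH 4 stood apart in other genes: the mean level of 8 tested mesendoderm genes was 3.21 there, against -2.12 to -0.93 on the other iPSC arrays and 0.12 on ESC. Their part in the results was not tested. Differences of single genes that turned direction or moved by over 1.5 times without OSKH 4 are also given without it. The same holds for OSKH minus OSK medians of whole lists, but not for other medians. The 13 pluripotency markers tested had a mean level between 4.18 and 4.90 on every array, but single markers varied more. Esrrb ran from 4.64 on OSKH 2 to 6.86 on OSKH 1 and Tfcp2l1 from 1.19 to 3.49 on the same arrays, while Pou5f1 stayed between 6.09 and 6.41. Of the 13, 8 lay higher in OSKH than in OSK, with a median of 0.01 (0.04 without OSKH 4). Nanog, the 1 at an unadjusted p under 0.05 in limma, differed by 0.54 (SE 0.21; limma adjusted p = 0.752).

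Between OSKH and OSK, 7 of the 9 testable genes lay lower in OSKH and 2 lay higher, with a median difference of -0.19. That median rested on single arrays: it was -0.0045 without OSK 1, -0.14 without OSKH 4 and -0.45 without OSKH 1 or without OSK 3. It was -0.24 over the 8 genes well above background on all 8 arrays, of which 6 lay lower, and -0.10 with normexp background correction. Over all 22685 features tested the median was -0.01 and 46.3% lay higher. None of the 9 passed limma's adjusted p threshold of 0.05, and percent called over all features was 0. The unadjusted p was under 0.05 for 3 of the 9 (Dazl, Stra8 and Mael) and for 1470 of all features. Groups did not overlap for 2 genes, Dazl and Mael, both with OSKH below, as did 4.19% of all features, while 0 of the 9 and 3.15% of all features had OSKH wholly above. With normexp background correction the Dazl groups overlapped. With 4 against 3 arrays, an exact permutation test over the 35 splits cannot give a p below 0.0286.

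Stra8, which retinoic acid induces and which starts meiosis, had the largest group difference of the set. Its level was 2.62, 3.54, 2.44 and 2.43 on OSKH 1 to 4, 4.67, 4.96 and 3.54 on OSK 1 to 3, and 2.92 on ESC. OSK 1 and OSK 2 were above all other arrays, while OSKH 2 lay just above OSK 3, so the groups overlapped. The OSKH mean was 2.76 ± 0.53 (SD, n = 4) and the OSK mean 4.39 ± 0.75 (SD, n = 3), a difference of -1.63 (SE 0.42), or 3.09-fold. It did not pass the threshold (limma adjusted p = 0.732, unadjusted p = 0.00601; exact two-sided permutation p = 0.0857).

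Dazl, an RNA-binding protein that licenses germ cells for gametogenesis, was dim but well above background on all 8 arrays. Its level was -2.35, -2.74, -3.10 and -2.94 on OSKH 1 to 4, -1.75, -2.02 and -2.25 on OSK 1 to 3, and -3.18 on ESC. Every OSK array was above every OSKH array, and ESC was below them all. The OSKH mean was -2.78 ± 0.33 (SD, n = 4) and the OSK mean -2.0 ± 0.25 (SD, n = 3), a difference of -0.78 (SE 0.20), or 1.71-fold. It did not pass the threshold (limma adjusted p = 0.732, unadjusted p = 0.00708; exact two-sided permutation p = 0.0571). With normexp background correction the difference was -0.37 and the groups overlapped. OSKH 1 (-1.76) then lay above OSK 3 (-1.87), and OSKH 3 (-2.21) lay below ESC (-2.08).

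Ddx4, the DEAD-box helicase also called Vasa that marks germ cells, varied little. Its level was 0.55, 0.13, 0.47 and 0.17 on OSKH 1 to 4, 0.46, 0.51 and 0.49 on OSK 1 to 3, and 0.34 on ESC. OSKH 1 was the highest and OSKH 2 and OSKH 4 the lowest, with the OSK arrays inside that span. The difference was -0.16 (SE 0.12; limma adjusted p = 0.888; exact permutation p = 0.371), with a 95% interval from -0.45 to 0.14, and it was -0.10 without OSKH 4.

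**Figure D1:**
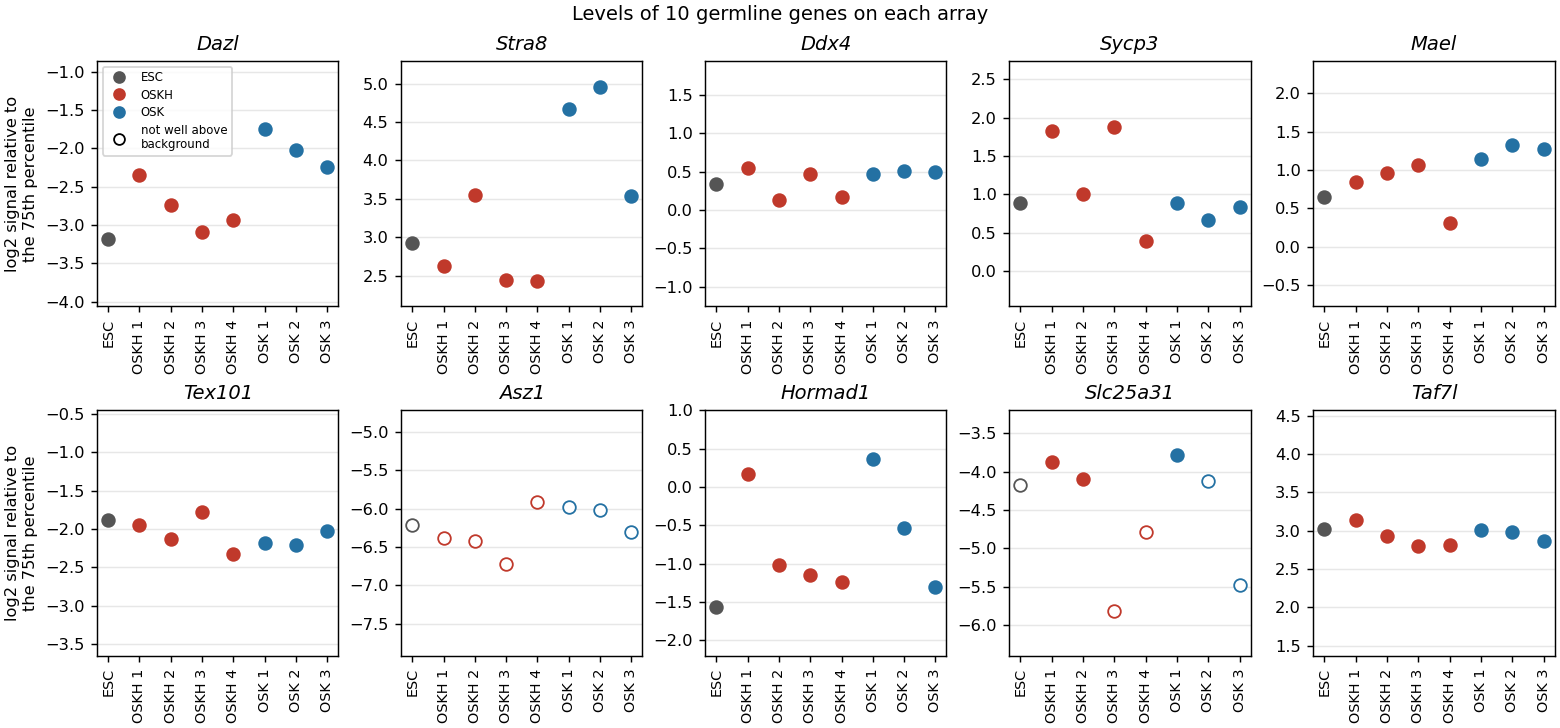
Level of each gene on each array as log2 signal relative to the array's 75th percentile (y axis, own range in each panel), with 1 point per array; ESC is grey, OSKH red and OSK blue, and open points are not well above background. The 3 OSK points lie above all 4 OSKH points for Dazl and Mael, and Asz1 has open points throughout.

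Mael and Asz1 belong to the piRNA pathway, which uses small RNAs to silence transposons in germ cells. Mael, a factor of the germ granules called nuage, had a level of 0.84, 0.96, 1.07 and 0.31 on OSKH 1 to 4, 1.15, 1.33 and 1.27 on OSK 1 to 3, and 0.64 on ESC. All OSK arrays were above all OSKH arrays, and OSKH 4 was the lowest. The OSKH mean was 0.79 ± 0.34 (SD, n = 4) and the OSK mean 1.25 ± 0.09 (SD, n = 3), a difference of -0.46 (SE 0.19; limma adjusted p = 0.760, unadjusted p = 0.0443; exact permutation p = 0.0571). Without OSKH 4 the difference was -0.30. Asz1, also a nuage protein, did not rise well above background on any of the 8 arrays and could not be tested.

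Sycp3 and Hormad1 are proteins of the meiotic chromosome axis. Sycp3 had a level of 1.82, 1.01, 1.88 and 0.39 on OSKH 1 to 4, 0.89, 0.66 and 0.84 on OSK 1 to 3, and 0.89 on ESC. OSKH 1 and OSKH 3 were well above the rest, OSKH 4 was the lowest, and the OSK arrays lay close together between them. The difference was 0.48 (SE 0.37; limma adjusted p = 0.883; exact permutation p = 0.343), and it was 0.78 without OSKH 4. Within slide row 2, OSKH 4 lay below the OSK mean by -0.40.

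Hormad1 had 2 probes. The brighter read 0.17, -1.02, -1.15 and -1.24 on OSKH 1 to 4, 0.37, -0.53 and -1.31 on OSK 1 to 3, and -1.56 on ESC. Arrays numbered 1 were the highest of both groups, OSK 3 was the lowest iPSC array, and ESC was below all 7. The second probe read -1.62, -2.54, -2.80 and -2.97 on OSKH 1 to 4, -1.33, -2.02 and -3.28 on OSK 1 to 3, and -3.20 on ESC, with the same order of arrays within each iPSC group. The difference of the brighter probe was -0.32 (SE 0.48; limma adjusted p = 0.947; exact permutation p = 0.571), and it turned to 0.11 when OSK 1 was left out. Leaving out OSKH 1 gave -0.65, leaving out OSK 3 gave -0.73 and leaving out OSKH 4 gave -0.18.

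Tex101, a surface protein of germ cells needed for sperm function, had a level of -1.95, -2.13, -1.77 and -2.33 on OSKH 1 to 4, -2.19, -2.22 and -2.02 on OSK 1 to 3, and -1.88 on ESC. OSKH 3 was the highest and OSKH 4 the lowest, with the OSK arrays between. The difference was 0.10 (SE 0.14; limma adjusted p = 0.946; exact permutation p = 0.543). It was 0.19 without OSKH 4 and -0.19 within slide row 2.

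Taf7l, a germ cell paralogue of the TFIID subunit Taf7, had a level of 3.14, 2.94, 2.80 and 2.82 on OSKH 1 to 4, 3.01, 2.99 and 2.87 on OSK 1 to 3, and 3.02 on ESC. The groups overlapped throughout, and Taf7l varied least of the 9 over the iPSC arrays, by 0.33. The difference was -0.03 (SE 0.11; limma adjusted p = 0.977; exact permutation p = 0.771), with a 95% interval from -0.29 to 0.22, and its sign turned without OSKH 3 or OSKH 4 (0.0064 and 0.0028).

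Slc25a31, the ADP/ATP carrier of male germ cell mitochondria, was well above background on OSKH 1 (-3.87), OSKH 2 (-4.10) and OSK 1 (-3.78) alone. It read -5.82 and -4.79 on OSKH 3 and 4, -4.12 and -5.47 on OSK 2 and 3, and -4.18 on ESC, so no fold is given. Its fitted difference was -0.19 (SE 0.58; limma adjusted p = 0.976; exact permutation p = 0.771), and its sign turned without OSKH 3 (0.20) or OSK 1 (0.15).

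**Figure D2:**
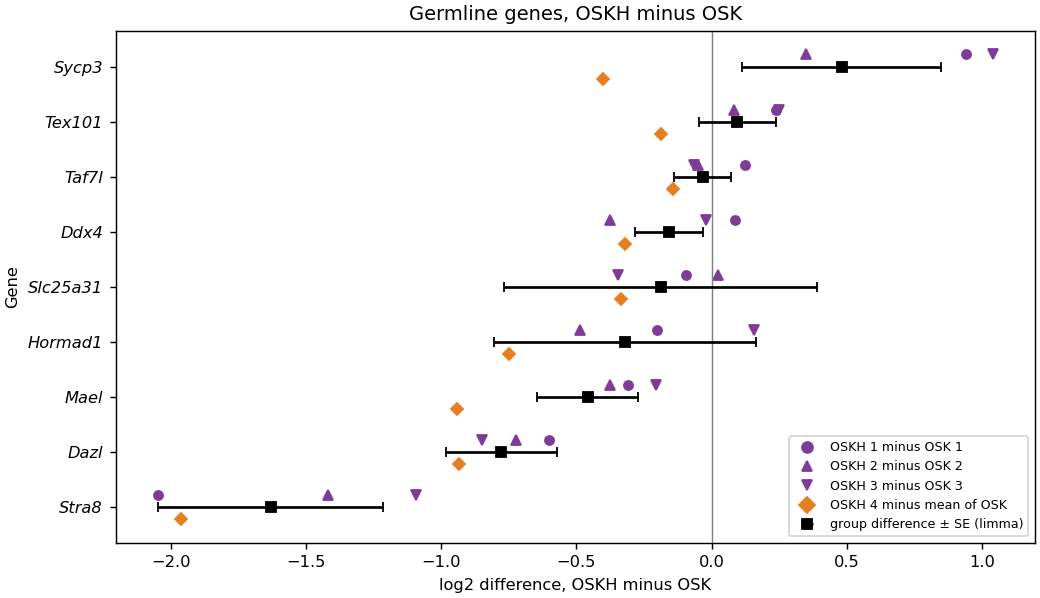
Log2 difference OSKH minus OSK (x axis) for the 9 testable genes (y axis): black squares with bars are limma group differences ± SE, purple symbols the same-numbered arrays (OSKH 1 minus OSK 1, and so on), and orange diamonds OSKH 4 minus the OSK mean. For Stra8, Dazl and Mael all symbols lie below 0, while for Sycp3 and Tex101 the purple symbols lie above 0 and the diamond below.

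Read between arrays of the same number, 3 genes lay lower in OSKH in all 3 pairs (Dazl, Stra8 and Mael), as did 17.7% of all features. Another 2 lay higher in all 3 (Sycp3 and Tex101), as did 16.3% of all features. For Stra8 the pair differences were -2.05, -1.42 and -1.09, and OSKH 4 lay below the OSK mean by -1.96. For Dazl they were -0.60, -0.72 and -0.85, and -0.93 for OSKH 4. Mael gave -0.31, -0.37 and -0.21, and -0.94 for OSKH 4. OSKH 4 was the only OSKH array in the slide row of the OSK arrays, so its value is the within-row difference. For Dazl and Stra8 it lay within or near the span of the pairs, and for Mael beyond it. Sycp3 gave 0.94, 0.35 and 1.04, against -0.40 for OSKH 4, so its within-row difference had the opposite direction.

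The genes also varied between arrays within a group. Arrays 1 to 3 were in the same order of level in OSKH and OSK for 6 of the 9 genes, against 29.5% of all features. OSKH 4 was the lowest of the 7 iPSC arrays for Stra8, Sycp3, Mael and Tex101, 4 of the 9, against 21.7% of all features. Both counts were chosen after the levels had been seen. The range over the 7 iPSC arrays was 2.53 for Stra8, 1.68 for Hormad1, 1.49 for Sycp3 and 1.35 for Dazl. Slc25a31 ranged by 2.04, but was well above background on only 3 of the 8 arrays. The median range over all features was 0.57. Ddx4 (0.41), Taf7l (0.33) and Tex101 (0.55) ranged less than that median. The mean level of the 9 genes was highest on OSK 1 (0.32) and lowest on OSKH 4 (-0.58).

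**Figure D3:**
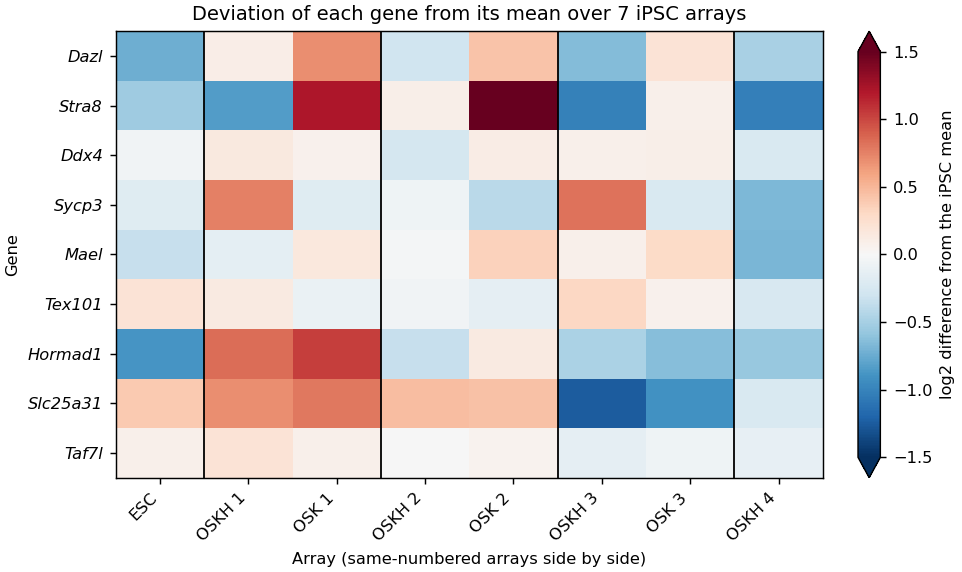
Colour shows the log2 difference of a gene (y axis) on each array (x axis, same-numbered arrays side by side between the black lines) from its mean over the 7 iPSC arrays. Stra8 is high on OSK 1 and OSK 2, Sycp3 on OSKH 1 and OSKH 3, Hormad1 on both arrays numbered 1, and most genes are low on OSKH 4.

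The genes did not follow a single pattern. Across the 8 arrays, which are no independent points since arrays share a group and a slide position, Dazl followed Stra8 (Pearson r = 0.80) and Hormad1 (0.76), Sycp3 followed Tex101 (0.79), and Slc25a31 followed Taf7l (0.82). Slc25a31 was well above background on only 3 of the 8 arrays, so its correlation rests in part on background values. Stra8 and Dazl ran against Tex101 (-0.46 and -0.43). Of 14390 named genes, those most like Dazl over the 8 arrays were Pkhd1 (r = 0.99), 4933438K21Rik (0.98), Gm5141 (0.97), Ccno (0.97) and Aplf (0.96). Those most like Stra8 were Tmem254c (0.98), Eva1b (0.97), Tmem254a (0.96), Crygc (0.96) and Tenm4 (0.96). As the highest of 14390 correlations over 8 arrays, such values can arise from selection alone. Pkhd1 and Aplf ranged by only 0.37 and 0.48 over the 8 arrays, against 1.62 for 4933438K21Rik.

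Against the single ESC array, 4 of the 9 genes lay higher in OSKH (median difference -0.01) and 5 of the 9 in OSK (median 0.14). Over all features the medians were -0.05 for both, and 40.1% and 42.7% lay higher. None of the 9 passed limma's adjusted p threshold in either comparison, and percent called over all features was 0 in both. The unadjusted p was under 0.05 for 0 of the 9 and 990 of all features in OSKH, and for 1 of the 9, Dazl, and 1365 of all features in OSK. With 1 ESC array, its spread is taken to equal that of the iPSC arrays.

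Dazl was higher than ESC by 0.40 (SE 0.30) in OSKH and by 1.18 (SE 0.31) in OSK (limma adjusted p = 0.999 and 0.715). With normexp background correction these differences of Dazl were 0.08 and 0.45. Stra8 differed from ESC by -0.16 (SE 0.61) in OSKH and by 1.47 (SE 0.63) in OSK (limma adjusted p = 0.999 and 0.823). Mael differed by 0.15 (SE 0.27) and 0.61 (SE 0.28; limma adjusted p = 0.999 and 0.826). For these 3 genes the OSKH mean was thus nearer to the ESC array than the OSK mean, which follows in part from the OSKH and OSK difference described above. ESC and OSKH 1 to 3 also lay in slide row 1 and the OSK arrays in row 2. Apart from OSKH 4, nearness to ESC cannot be told apart from slide row. Hormad1 was higher than ESC by 0.75 (SE 0.71) in OSKH and 1.07 (SE 0.73) in OSK (limma adjusted p = 0.999 and 0.875). For Ddx4, Tex101, Taf7l and Sycp3 both differences from ESC lay between -0.26 and 0.39. Without OSKH 4, OSKH minus ESC was 0.68 for Sycp3, 0.31 for Mael, -0.05 for Stra8, 0.04 for Ddx4, -0.07 for Tex101 and -0.06 for Taf7l.

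Other genes of the germ line, from lists chosen with earlier results of these arrays known, were compared in the same way. Of 33 tested genes of the germ line and meiosis, 22 lay lower in OSKH than in OSK and 11 higher, with a median of -0.12. None passed the adjusted p threshold in limma, and 0 had an unadjusted p under 0.05. Fkbp6, a chaperone of the piRNA pathway, differed by -0.70 (SE 0.38). The germ cell transcription factor Sohlh2 differed by -0.47 (SE 0.23), and Syce3, of the synaptonemal complex, by 0.17 (SE 0.13). Of 12 piRNA pathway genes 9 lay lower, with a median of -0.13 and 0 past the threshold or at an unadjusted p under 0.05. Among them Gtsf1, a piRNA cofactor, differed by -0.54 (SE 0.27). The germ cell helicase Ddx25 differed by 0.17 (SE 0.08), with all OSKH arrays above all OSK arrays, and Tdrd7, a Tudor protein of germ granules, by 0.75 (SE 0.39). Without OSKH 4 the medians of these lists were -0.07 and -0.08, with 18 of 33 and 7 of 12 genes lower, and Sohlh2 differed by -0.30.

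Of 9 genes of primordial germ cell specification, 7 lay higher in OSKH, with a median of 0.44 and none past the threshold in limma (0 at an unadjusted p under 0.05). Dppa3, also called Stella, was at 3.02, 2.05, 2.69 and 2.60 on OSKH 1 to 4 and at 2.48, 1.96 and 1.40 on OSK 1 to 3, a difference of 0.64 (SE 0.31). The groups overlapped. The list's median was 0.24 without OSKH 4 and 0.15 without OSKH 1. Of 6 tested markers of testis and ovary somatic cells, 5 lay lower, with a median of -0.15 (0 called in limma, 1 at an unadjusted p under 0.05). That gene, Wt1, a transcription factor of the gonad and kidney, differed by -1.68 (SE 0.59; limma adjusted p = 0.743). Of the 12 listed, 11 were on the array. None of the 8 arrays called Amh, Hsd3b1 or Cyp19a1 well above background, and Sox9 and Gata4 were so called on 1 and 2 arrays. Wt1, Nr5a1, Cyp17a1 and Foxl2 were well above background on all 8, with Foxl2 between 5.76 and 6.32 and Cyp17a1 between 2.11 and 3.56. The mean level of the 6 tested was 0.05 to 0.52 on the OSKH arrays, 0.43 to 0.96 on the OSK arrays and 0.62 on ESC.

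Of 8 tested enzymes and cofactors that set or keep DNA methylation, 7 lay lower in OSKH, with a median of -0.07, and none passed the threshold in limma (0 at an unadjusted p under 0.05). Dnmt1, the maintenance methyltransferase, differed by -0.06 (SE 0.09), and its partner Uhrf1 by -0.09 (SE 0.12). Of the de novo enzymes, Dnmt3a differed by -0.41 (SE 0.30) and Dnmt3b by 0.11 (SE 0.20), and their cofactor Dnmt3l by -0.35 (SE 0.37). Dnmt3l was lowest on OSKH 4, at 4.94, against 5.43 to 6.46 on the other iPSC arrays. Tet1 and Tet2, which oxidise methylated cytosine, differed by -0.18 (SE 0.18) and -0.08 (SE 0.34), within a list of 6 with a median of -0.07 and 0 genes past the threshold or at an unadjusted p under 0.05. Without OSKH 4 the median of the methylation genes was -0.04. Uhrf1 then differed by -0.04, Dnmt3l by -0.13, Tet1 by -0.12 and Tet2 by -0.19. The median of the TET list turned to 0.0037 without OSK 1 and to 0.04 without OSKH 2.

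Of 22 genes of PRC1.6, E2F6 and the histone H3K9 methylation machinery, 16 lay lower in OSKH, with a median of -0.09 and none past the threshold in limma (1, Hdac2, at an unadjusted p under 0.05). Without OSKH 4 the median was -0.05. Mga, Max and Pcgf6, subunits of PRC1.6, differed by -0.06 (SE 0.19), -0.15 (SE 0.09) and -0.11 (SE 0.10). E2f6 differed by 0.11 (SE 0.22), and L3mbtl2 by -0.09 (SE 0.10). Without OSKH 4, Mga turned to 0.04, Pcgf6 was at -0.05 and L3mbtl2 at -0.05. Setdb1, an H3K9 methyltransferase, differed by -0.11 (SE 0.10) and its partner Atf7ip by -0.26 (SE 0.11). Hdac2, a histone deacetylase, was at -1.39, -1.68, -1.58 and -1.64 on OSKH 1 to 4 and at -1.75, -2.0 and -1.77 on OSK 1 to 3, and differed by 0.27 (SE 0.11; limma adjusted p = 0.754). All its OSKH arrays were above all its OSK arrays.

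Stra8 responds to retinoic acid, so genes of that response are given beside it. Of 15 tested, 9 lay higher in OSKH, with a median of 0.10, none past the threshold in limma and 1 (Rarg) at an unadjusted p under 0.05. The retinoic acid receptor gene Rarg was at 4.95, 4.86, 4.53 and 4.58 on OSKH 1 to 4 and at 5.22, 5.11 and 5.06 on OSK 1 to 3, and differed by -0.40 (SE 0.13; limma adjusted p = 0.732). All OSK arrays were above all OSKH arrays. The mean of the list was 1.03 on OSKH 4, against -1.23 to -0.19 on the other iPSC arrays, while Stra8 was lowest on OSKH 4. The list's median was -0.36 without OSKH 4 and -0.12 without OSK 1. Over the 10 of these genes well above background on all 8 arrays it was -0.04, with 5 lower and 5 higher. The part of retinoic acid in the Stra8 difference was not tested.

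Some genes of the cleavage-stage embryo mark the Zscan4-positive state of pluripotent cultures. Those tested were on average highest on OSK 1 and OSK 2, as Stra8 was. Of 8 tested genes, 4 were well above background on all 8 arrays. Their mean level was -0.85, 0.65, -0.32 and -0.46 on OSKH 1 to 4, 1.02, 1.82 and 0.31 on OSK 1 to 3, and -1.13 on ESC. By this mean OSK 1 and OSK 2 were the highest and OSKH 2 came next, as for Stra8, but the single genes differed. Zscan4c and Zscan4f were higher on OSKH 2 (0.71 and 1.72) than on OSK 1 (0.32 and 1.24). Usp17la on OSKH 2 (-2.81) lay below OSK 3 (-2.59), and Zfp352 was highest on ESC (3.36). ESC was the lowest array by the mean, while for Stra8 it lay above OSKH 1, 3 and 4. All 4 genes lay lower in OSKH, with a median of -1.58, and none passed the threshold in limma. The other 4 were at background on some arrays, Tcstv1, Tmem92 and Usp17lb on 3 of 4 OSKH arrays and on ESC. Those 3 were testable mainly through the OSK arrays, where they were high, so they are left out of the count and median. Of the 4 genes well above background on all 8 arrays, only Usp17la (-1.34, SE 0.43) had an unadjusted p under 0.05 in limma. So did 1470 of all 22685 features, and no call was made. The part of the cleavage-stage genes in the Stra8 difference was not tested.

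**Figure D4:**
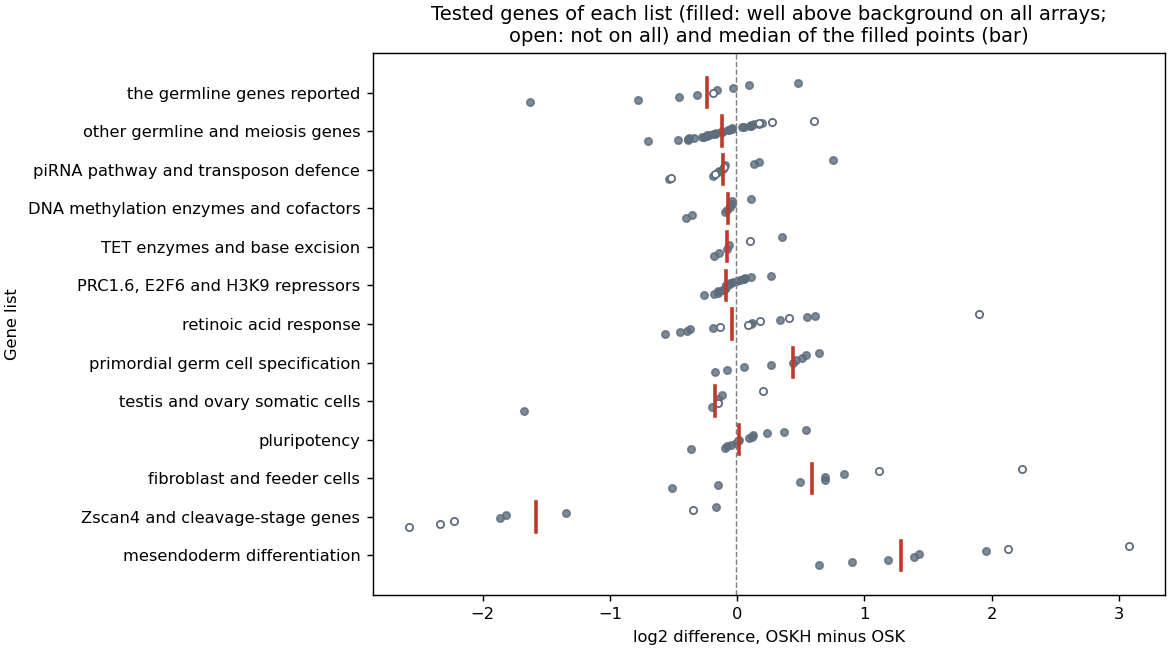
Log2 difference OSKH minus OSK (x axis) of each tested gene (points) in each gene list (y axis), with the median of the genes well above background on all 8 arrays (filled points) as a red bar, genes not well above background on all of them as open points, and the median of all 22685 features as a dashed line. By the red bars the germline genes reported have a median of -0.24, the Zscan4 and cleavage-stage genes -1.58 and the mesendoderm genes 1.29, and no gene shown passed the adjusted p threshold.

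Many markers of other cells were high on OSKH 4. Of 8 tested fibroblast and feeder genes 6 lay higher in OSKH, with a median of 0.69 (0 called in limma). Over the 6 of them well above background on all 8 arrays it was 0.59, with 4 higher and 2 lower. Vim, at an unadjusted p under 0.05 in limma, differed by -0.51 (SE 0.16). Postn differed by 2.24 (SE 0.87), but was at background on all 3 OSK arrays. It was testable only through OSKH and ESC arrays, so no p is read from it. Of the 8, 5 were highest among the iPSC arrays on OSKH 4, while Thy1, Vim and Fn1 were not. The mean level of the 8 was 2.28 on OSKH 4 and 2.35 on ESC, against -0.01 to 0.82 on the other iPSC arrays. Without OSKH 4 the median difference of the 8 was 0.06. All 8 mesendoderm genes were highest on OSKH 4 among the iPSC arrays and lay higher in OSKH, with a median of 1.41 (0 called in limma, 0 at an unadjusted p under 0.05), and without OSKH 4 it was 0.39. Over the 6 mesendoderm genes well above background on all 8 arrays the median was 1.29. Without OSKH 4, Dazl and Stra8 differed by -0.72 and -1.52, so that these differences were about as large without that array.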

How the data were processed

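Gene expression was measured on 8 one-colour Agilent arrays. Per the file headers, the scans were read with Agilent Feature Extraction 11.5.1.1. The intensity the authors deposited is a processed signal, background-subtracted and not scaled between arrays. The deposited log2 value table, used as an alternative, equalled these values up to 1 constant per array within 0.01. Groups were taken from the sample titles.

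From 59305 spots other than controls, outlier spots were dropped and the rest averaged per probe. The log2 signal minus the array's 75th percentile over probes was the level. That percentile was taken over probes and not spots after first results were seen. Probes that 3 or more of the 8 arrays called well above background were kept, the brightest per gene, and named through RefSeq accessions (GRCm38.p6; 27650 of 55681 probes), which left 22685 features. Groups were tested with limma 3.58.1 in R 4.3.3 (lmFit, eBayes; Benjamini-Hochberg over all features, threshold 0.05), after a test on simulated data. The number of arrays limits the precision.

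Genes and lists were chosen with earlier results of these data known. All 10 members were named, up to 2 genes per direction of each other list by smallest p, any DNA methylation, TET or PRC1.6 gene, and the 5 most like Dazl and Stra8. Outside that rule, listed genes near background, Pou5f1, Esrrb, Tfcp2l1, Cyp17a1, Foxl2, Zscan4c, Zscan4f and Zfp352 were named after their values were seen. Motifs and promoters shown were chosen after values were seen. Deviations from the group mean correlated between same-numbered arrays (0.47, 0.26 and 0.45), which treats the numbers as paired, although such arrays also share a slide column. The alternatives were normexp (on the median signal, since the files hold no mean signal), quantile normalization, filters, probe means, the deposited table, blocks for array number and slide row, iPSC arrays alone, a percentile over spots (added after seeing the data) and leaving out each iPSC array.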

Additional observations from a re-analysis of the deposited data

Results flagged for a closer look

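Hormad1 on OSKH 1, at 0.17, stood far from OSKH 2 to 4: its gap to the next array was 0.84 of the group's range, above the critical value for 4 arrays. OSK 1, at 0.37, was likewise the highest of its group. The second Hormad1 probe was also highest on OSKH 1, with a gap of 0.68 of the range, under the critical value. Stra8 on OSKH 2 had a nearly equal gap of 0.826, also under the critical value. By chance a gap above that value arises in about 1 of 20 groups, and 11 probes were examined.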

How the results depend on the processing

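None of the 9 testable genes passed the threshold in any comparison under any alternative. Of 420 gene values under the alternatives, 405 kept their direction and 15 turned it. Part of the 420 could not turn. The fit of iPSC arrays alone and the filters repeated the main differences. Probe means changed only genes with more than 1 probe. Leaving out an OSKH array left OSK minus ESC as it was. The count is thus no measure of how stable the directions are. The OSKH minus OSK difference ran from -0.93 to -0.37 for Dazl, from -2.06 to -1.34 for Stra8 and from -0.94 to -0.30 for Mael, with limma adjusted p from 0.33 to 1.00, 0.38 to 1.00 and 0.10 to 1.00. With the replicate block, which pairs arrays of the same number, Dazl was at -0.72 (SE 0.09; limma adjusted p = 0.381), Stra8 at -1.52 and Taf7l at 0.0028, and no call changed. At an unadjusted p under 0.05 there were then 4 of the 9 genes and 2326 of all features. With slide row as a block, which compares OSKH 4 with OSK, Sycp3 turned to -0.40 and Tex101 to -0.19, OSKH minus ESC of Ddx4 to 0.039, and OSK minus ESC of Sycp3 to 1.08, of Tex101 to 0.12 and of Taf7l to 0.085. That setting called 7 genes of the other lists, against 0 otherwise, and 47 of all features. Leaving out 1 array at a time gave OSKH minus OSK values from -0.73 to 0.11 for Hormad1, from -0.70 to 0.20 for Slc25a31 and from -0.10 to 0.0064 for Taf7l. OSKH minus ESC of Ddx4 then ran from -0.087 to 0.051, and OSK minus ESC of Slc25a31 from -0.62 to 0.23. The cause of these turns was not tested.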
